A study of Homo sapiens with 49 samples.

Results

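MYCN, its antisense RNA MYCNOS and the paralog MYC were followed through RNA sequencing of a pair of human neuroblastoma cell models. The set is defined by name: the rows MYCN, MYCNOS and MYC, which are 3 of the 23621 genes of the deposited tables. SHEP-21N is a neuroblastoma line with a TET-off MYCN gene. Doxycycline at 0.2 µg/ml shuts that gene down. Libraries with doxycycline were made after 2, 4, 6, 8, 16 and 24 h, 3 each, and 2 libraries stand for 0 h. The labels of these 2 also give doxycycline at 0.2 µg/ml, with a time of 0 h. They are taken here as cells before doxycycline. BE(2)-C is a neuroblastoma line with an amplified MYCN locus. The derivative used here carries a TET-on hairpin against TWIST1, a helix-loop-helix transcription factor, and doxycycline (0.5 µg/ml) switches the hairpin on. Its libraries were made after 3, 6, 12, 24 and 48 h of doxycycline and without doxycycline, 3 each. All cells of a model carry its TET system, controls included, and both were kept in tetracycline-free serum. No group received doxycycline without the shutdown or the hairpin among the libraries analysed, so an effect of doxycycline itself cannot be told apart from them. The labels do not name the promoter or vector behind the MYCN gene of SHEP-21N, nor say whether either line is 1 clone. Of the 49 samples listed, 38 have values in the tables, and 11 samples of BE(2)-C cells with DMSO or with JQ1 at 1 µM are not analysed here.

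MYCN and MYC are transcription factors of 1 family. Each pairs with MAX to bind E-box DNA and drives genes of growth, ribosome production and the cell cycle. MYCN is amplified in a large share of high-risk neuroblastomas, and tumours and lines with high MYCN usually have little MYC. Both proteins are short-lived, and their amount depends on their breakdown as well as on their RNA. The values here are of RNA only. MYCNOS is transcribed from the opposite strand at the 5' end of MYCN. It is known both as a noncoding RNA and as the template of a small protein, NCYM, that protects MYCN from breakdown.

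Values are FPKM, fragments mapped to a gene set to its transcript length and to the size of the library, so that levels can be set side by side between genes. They are rescaled to the ERCC spike-in RNAs added at lysis unless called unnormalised. Means are given ± SD. Changes are log2 differences of (FPKM + 1), which understates the change of weak genes, and were tested with limma on all genes whose mean reached 1 unnormalised FPKM, which left 11867 in SHEP-21N and 11433 in BE(2)-C. A gene rose or fell where the Benjamini-Hochberg adjusted p was under 0.05. Comparisons of 1 model share its control libraries. No label says that replicates came from separate cultures, so p-values measure the spread between these libraries, which may be technical. Read numbers are not given, so the depth behind an FPKM is unknown.

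Some libraries stood apart. Unnormalised spike-in sums ran from 26061 to 47480 FPKM in SHEP-21N and from 15455 to 140361 in BE(2)-C. The 3 BE(2)-C libraries at 48 h hold the 3 highest, 57913 or more, against 54501 or less in every other library of that model. In SHEP-21N the labels give each 8, 16 or 24 h library an index that a 0, 2 or 4 h library also carries, apart from 1 of the 8 h libraries, and no label names the sequencing pool. Pool and time therefore cannot be told apart there. In BE(2)-C the 12 h library numbered 2 held 64 entries more than 5-fold above every other library of its model after adding 0.1 FPKM, against 1 to 8 entries in the other libraries. Among them were OTX2 at 9.64 unnormalised FPKM (0.0617 at most elsewhere in BE(2)-C and 0 in SHEP-21N), NEUROD1 at 2.07 and MAGEA3 at 2.27. The highest SHEP-21N level was 0 for NEUROD1 and 201 for MAGEA3, so some of these entries are high in that model and others absent. MYC is another of the 64 entries, so MYC in BE(2)-C is given with and without 12 h library 2. Of 12 sympathoadrenal markers, 12 reached 1 FPKM in BE(2)-C control cells, and 3 did in SHEP-21N, where DDC was listed at 0 in every library. Of 8 mesenchymal markers, 3 reached it in BE(2)-C and 8 in SHEP-21N. Of 10 markers of blood, endothelial, Schwann or epithelial cells, 3 did in BE(2)-C and 1 in SHEP-21N.

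The sequences at the 2 starts decide how far the sense and antisense RNAs can be counted apart. On GRCh38, with GENCODE release 29, MYCN runs from chr2:15940564-15947007 on the plus strand and MYCNOS from chr2:15921037-15942249 on the minus strand. The tables were made on hg19, so these coordinates do not apply to the authors' files. In that release the exons of the genes share 98 bases, chr2:15942152-15942249, all of them in the MYCN coding sequence. They are 4.06% of the 2413 exonic bases of MYCNOS and 3.77% of the 2602 of MYCN. RefSeq (GRCh38.p14) gives MYCNOS 2 starts in the table used. Each window below runs on the MYCNOS strand from 250 bases before the start to 50 after it, and the capitals mark the first 50 transcribed bases. Start 1, chr2:15941636-15941935, holds no base of a MYCN exon. Start 2, chr2:15942384-15942683, lies with all 300 of its bases inside the MYCN coding sequence, and its reverse complement is found whole in the MYCN transcript MYCN-201. Its 50 transcribed bases lie outside the 98, so the overlap is longer in RefSeq than in GENCODE, by an amount not measured here. The kit keeps strand, but no source used here gives the strand setting of the counting. If strand was not used, reads of the shared bases cannot be told apart, and their part in the MYCNOS values was not tested.
MYCNOS start 1: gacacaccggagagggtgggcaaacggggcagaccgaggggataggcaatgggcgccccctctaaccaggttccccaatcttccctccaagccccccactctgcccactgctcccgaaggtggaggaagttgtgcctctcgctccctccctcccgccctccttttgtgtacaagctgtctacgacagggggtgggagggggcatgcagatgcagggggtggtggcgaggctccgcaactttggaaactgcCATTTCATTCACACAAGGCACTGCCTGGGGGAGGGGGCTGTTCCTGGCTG
MYCNOS start 2: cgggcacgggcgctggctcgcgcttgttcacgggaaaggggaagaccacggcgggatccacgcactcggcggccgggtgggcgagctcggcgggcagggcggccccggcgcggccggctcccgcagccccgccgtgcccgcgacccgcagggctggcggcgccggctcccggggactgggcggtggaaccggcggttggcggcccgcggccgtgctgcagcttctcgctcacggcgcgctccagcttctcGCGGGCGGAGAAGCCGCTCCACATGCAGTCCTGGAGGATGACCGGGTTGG

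The 250 bases before the RefSeq start of MYCN, chr2:15940300-15940549 on the plus strand, are shown because E2F factors are known activators of the chromosomal MYCN promoter. The search covered TTTCCCGC, TTTCGCGC, TTTGCCGC and TTTGGCGC on both strands. A pair of overlapping words was found and is in capitals: TTTGGCGC at bases -176 to -169 and GCGCGAAA, the reverse complement of TTTCGCGC, at -172 to -165, counted from the start. At least 1 of the 4 words occurs in 979 of 35116 such windows (2.79%). The E-box CACGTG, found in 2228 windows (6.34%), does not occur in this one. A match is a description of these letters and not a binding site.
MYCN: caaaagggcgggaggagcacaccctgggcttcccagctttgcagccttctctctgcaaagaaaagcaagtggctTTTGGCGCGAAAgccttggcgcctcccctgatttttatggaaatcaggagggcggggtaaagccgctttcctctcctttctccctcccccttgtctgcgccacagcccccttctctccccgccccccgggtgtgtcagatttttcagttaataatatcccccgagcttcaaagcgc

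MYCN in SHEP-21N cells fell by the first time point, 2 h, and reached its low level by 6 h. It stood at 723 and 855 FPKM at 0 h, at 188, 143 and 145 at 2 h, at 32.5, 24.5 and 38.9 at 4 h, and at 14.8, 15.0 and 11.6 at 6 h. The later values were 15.2, 16.0 and 12.9 at 8 h, 9.46, 14.3 and 12.3 at 16 h, and 17.3, 13.9 and 11.2 at 24 h. The 0, 2 and 4 h libraries do not overlap with each other or with any later library, and those from 6 to 24 h overlap. In percent of the 0 h mean of 789 ± 93.4 FPKM (n = 2), the means were 20.1, 4.05, 1.75, 1.86, 1.52 and 1.79% at 2, 4, 6, 8, 16 and 24 h (n = 3 each). MYCN ranked 141 and 143 among 23621 genes in the 0 h libraries, and between 4946 and 6304 from 6 h on.

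The fall of MYCN passed the limma test at every time. At 2 h it was -2.31 (SE 0.218, adjusted p = 1.18e-05) and at 4 h -4.60 (adjusted p = 1.55e-10). From 6 to 24 h it lay between -5.65 and -5.93, with an adjusted p of 3.99e-12 or less. Between neighbouring times, MYCN fell further at 4 h against 2 h (-2.29, adjusted p = 6.95e-06). The difference at 6 h against 4 h was -1.14 and missed the threshold (adjusted p = 0.0705), though it passed on unnormalised values (-1.04, adjusted p = 3.18e-06) and without 4 h library 1 (adjusted p = 0.0228), 16 h library 0 (0.0410) or 16 h library 1 (0.0395). Levels at 6 and 8 h differed by 0.08 (adjusted p = 1.00 when rounded). On unnormalised values MYCN was at 15.5 ± 0.117 FPKM at 24 h, against 10.9 ± 0.214 at 16 h (+0.47, adjusted p = 5.81e-04). On rescaled values the same difference was +0.21 (adjusted p = 0.418).

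As a background for these calls, 0.0506, 0.0758, 7.54, 3.83, 3.04 and 32.4% of tested genes fell at 2, 4, 6, 8, 16 and 24 h. At 2 h that is 6 genes, MYCN and MYCNOS among them, and at 4 h 9 genes. The share of tested genes that rose was 0, 0.00843, 3.17, 3.92, 5.13 and 6.16% at the same times. On unnormalised values 0.345, 18.1, 29.8, 29.2, 27.5 and 36.4% fell and 0.236, 15.8, 26.8, 25, 23.8 and 28.9% rose. The median gene changed by -0.04 at 24 h on that scale, against -0.31 on rescaled values. Between neighbouring times, 0.0506% fell and 0.00843% rose at 4 h against 2 h, 0% in either direction at 6 h against 4 h and at 8 h against 6 h, 0.455% fell and 2.01% rose at 16 h against 8 h, and 7.63% fell and 0.244% rose at 24 h against 16 h. Where limma called no gene, 918 genes at 6 h against 4 h and 356 at 8 h against 6 h had an unadjusted p under 0.05. On unnormalised values 10.3% fell and 5.27% rose at 6 h against 4 h, 13.2% fell and 15% rose at 16 h against 8 h, and 18.6% fell and 11.1% rose at 24 h against 16 h.

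**Figure D1:**
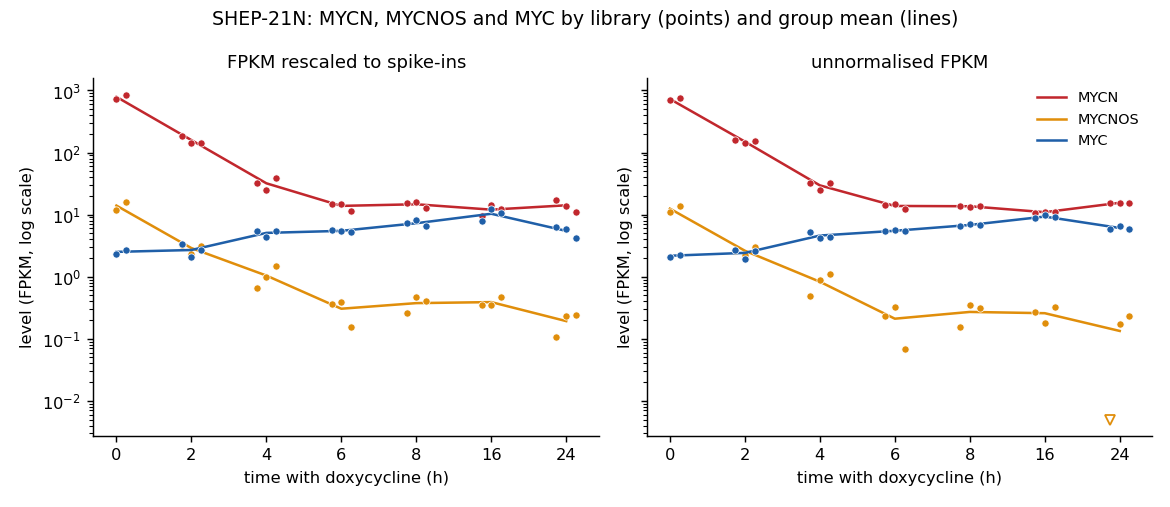
MYCN, MYCNOS and MYC in SHEP-21N cells by hours with doxycycline, in FPKM on a log scale, rescaled to spike-ins on the left and unnormalised on the right; points are libraries and lines join group means. MYCN and MYCNOS drop together and MYC climbs to 16 h, where its mean is 10.3 FPKM. The open triangle at the foot marks the 24 h library where MYCNOS is listed at 0, which a log scale cannot show.

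MYCNOS fell together with MYCN in SHEP-21N cells, though the part of reads from the bases shared with MYCN in its values was not tested. Its level was 12.0 and 16.0 FPKM at 0 h, 3.26, 2.34 and 3.07 at 2 h, 0.648, 1.00 and 1.48 at 4 h, and 0.366, 0.392 and 0.157 at 6 h. It was 0.258, 0.466 and 0.402 at 8 h, 0.344, 0.346 and 0.479 at 16 h, and 0.105, 0.234 and 0.239 at 24 h. All libraries with doxycycline lie below both 0 h libraries. The rescaled tables give entries that are listed at 0 in the unnormalised table a small positive value, 0.0706 to 0.127 FPKM in this model, so the lowest of these values are close to what a listed 0 becomes. The 24 h library with 0.105 is such a case. The mean was 2.89 ± 0.484 FPKM at 2 h, against 14.0 ± 2.87 at 0 h, a fall of -1.94 in log2 (SE 0.174, adjusted p = 8.06e-06). It was 0.193 ± 0.0756 FPKM at 24 h (-3.64, adjusted p = 1.22e-10), and the falls at 4, 6, 8 and 16 h were -2.88, -3.51, -3.43 and -3.42. At 4 h against 2 h MYCNOS fell by a further -0.94 (adjusted p = 0.0188). That call ended with a pseudocount of 0.1 FPKM (-1.44, adjusted p = 0.144) and when 2 h library 0 (adjusted p = 0.196), 4 h library 0 (0.184) or 4 h library 1 (0.0972) was left out.

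MYCNOS was a small share of the MYCN level at each time. In percent of MYCN in the same library, rescaled MYCNOS averaged 1.76 ± 0.154% at 0 h, 1.83 ± 0.258% at 2 h, 3.29 ± 1.13% at 4 h, 2.14 ± 0.690% at 6 h, 2.58 ± 0.767% at 8 h, 3.32 ± 0.785% at 16 h and 1.47 ± 0.781% at 24 h. On this scale the 4 and 16 h libraries lie above both 0 h libraries, and the other times overlap with them. On unnormalised values, which do not raise a listed 0, the means were 1.71 ± 0.226, 1.74 ± 0.197, 2.86 ± 1.16, 1.47 ± 0.820, 2.00 ± 0.796, 2.37 ± 0.668 and 0.865 ± 0.771% at 0, 2, 4, 6, 8, 16 and 24 h. There 4 h library 0, at 1.53%, lies below both 0 h libraries and 16 h library 1, at 1.63%, between them, so that no time before 24 h stands apart from 0 h. The 24 h libraries, 0 to 1.48%, lie below both. No single time can pass a test here, since 3 libraries against 2 give an exact permutation p of at least 0.2. Over all 18 doxycycline libraries the log2 ratio of (MYCNOS + 1) to (MYCN + 1) was -3.87, against -5.73 at 0 h, a difference of +1.86 (exact permutation test, two-sided, p = 0.01053, the smallest it can give). This call rests on the added 1 FPKM, which is more than MYCNOS itself from 6 h on. With 0.1 FPKM added the difference was +0.66 (exact p = 0.1368). With nothing added and without the library listed at 0 it was +0.45 (exact p = 0.2456), and +0.10 on unnormalised values (exact p = 0.7953). Each of these has 2 libraries at 0 h to compare with, and without either of them the exact test cannot go below 0.1053.

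MYC rose in SHEP-21N cells as MYCN went down, and was highest at 16 h. Its level was 2.34 and 2.68 FPKM at 0 h, 3.36, 2.07 and 2.64 at 2 h, 5.49, 4.29 and 5.45 at 4 h, and 5.70, 5.43 and 5.30 at 6 h. It was 7.30, 8.06 and 6.44 at 8 h, 7.87, 12.5 and 10.6 at 16 h, and 6.27, 5.87 and 4.27 at 24 h. The 2 h libraries overlap with 0 h, and each library from 4 h on is above both. In percent of the 0 h mean of 2.51 ± 0.244 FPKM, MYC was at 107, 202, 218, 289, 411 and 218% at 2, 4, 6, 8, 16 and 24 h. The rise passed at 6 h (+0.88, SE 0.182, adjusted p = 0.00938), 8 h (+1.23, adjusted p = 0.00133), 16 h (+1.67, adjusted p = 4.20e-05) and 24 h (+0.87, adjusted p = 0.00204). At 2 h the change was +0.06, with an adjusted p of 1.00 when rounded.

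The start and the end of the MYC rise depend on scale and library. At 4 h it was +0.79 and missed the threshold (adjusted p = 0.0751). It passed there on unnormalised values (+0.81, adjusted p = 4.40e-05), and also without 6 h library 2 (adjusted p = 0.0427) or 16 h library 0 (0.0444). The 6 h call ended without 0 h library 1 (adjusted p = 0.0626) or 0 h library 2 (0.123). MYC was lower at 24 h than at 16 h (-0.80, adjusted p = 0.00761), and on unnormalised values too (-0.54, adjusted p = 1.36e-04). That drop missed the threshold without 16 h library 1 (adjusted p = 0.0790) or 24 h library 2 (0.0639). The step at 16 h against 8 h was +0.44 (adjusted p = 0.239), with +0.40 on unnormalised values (adjusted p = 0.00146) and an adjusted p of 0.0453 without 16 h library 0.

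The ratio of MYC to MYCN rose over the time course, while the sum of both stayed low from 6 h on. MYC stood at 0.319 ± 0.00677% of the MYCN level at 0 h, 1.69 ± 0.212% at 2 h, 16.1 ± 1.87% at 4 h, 40.1 ± 4.93% at 6 h, 49.5 ± 1.15% at 8 h, 85.6 ± 2.20% at 16 h and 38.9 ± 3.11% at 24 h. No time overlaps with 0 h, 2 h or 4 h apart from itself, and the 16 h libraries, 83.2 to 87.5%, are the nearest to parity. Over the 18 doxycycline libraries the log2 ratio of MYC to MYCN was -2.08 ± 1.91, against -8.29 ± 0.0307 at 0 h (+6.22, exact permutation test, two-sided, p = 0.01053, the smallest it can give). Without either 0 h library the exact test cannot go below 0.1053 and gave that value. MYCN, the denominator, is the gene that doxycycline shuts down, so this ratio would rise with MYC unchanged. Its test therefore says nothing on MYC itself. The sum of both was 792 ± 93.7 FPKM at 0 h, 161 ± 25.7 at 2 h, 37.0 ± 7.80 at 4 h, and 19.3 ± 2.06, 22.0 ± 2.40, 22.3 ± 4.77 and 19.6 ± 4.05 at 6, 8, 16 and 24 h. From 6 to 24 h the ranges of the sum overlap. The highest group mean of MYC, 10.3 FPKM at 16 h, compares with 789 for MYCN alone at 0 h.

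TWIST1, the target of the hairpin, fell in BE(2)-C cells. It was at 7.65, 11.2 and 4.60 FPKM after 48 h of doxycycline, against 91.8, 70.3 and 82.0 without doxycycline (-3.29, SE 0.339, adjusted p = 4.12e-08). On unnormalised values TWIST1 was at 18.1 ± 0.684 FPKM at 48 h, against 64.9 ± 8.69 without doxycycline (-1.78, adjusted p = 9.30e-09). On rescaled values it passed from 24 h on (-1.90, adjusted p = 0.00253), and on unnormalised values from 6 h on (-0.93, adjusted p = 2.45e-04). Of all tested genes, 0.0175, 0.0175, 0.0262 and 0.586% fell at 3, 6, 12 and 24 h, and 0.0175% rose at each of these times. On unnormalised values 0.0175, 0.472, 3.33 and 13.6% fell and 0, 0.00875, 0.752 and 9.55% rose. SHEP-21N cells also express TWIST1, at 24.4 ± 6.35 FPKM at 24 h against 32.8 ± 2.92 at 0 h, which did not pass (-0.44, adjusted p = 0.131).

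MYCN in BE(2)-C cells fell at 48 h of doxycycline, by far more on the rescaled than on the unnormalised scale. On the rescaled scale it was at 1423, 851 and 1184 FPKM without doxycycline, 593, 1116 and 831 at 3 h, 1242, 1920 and 1008 at 6 h, 1150, 1841 and 1233 at 12 h, 892, 1082 and 882 at 24 h, and 306, 463 and 197 at 48 h. The 48 h libraries lie below all others, and the earlier times overlap with no doxycycline. The mean at 48 h was 322 ± 134 FPKM, against 1153 ± 287 without doxycycline, a difference of -1.89 (SE 0.354, adjusted p = 6.52e-05). At that time 93.3% of tested genes fell and 0.131% rose, and the median gene changed by -1.36, so MYCN is one of a great many. Against 24 h it fell by 1.64 on the log2 scale (adjusted p = 0.00294), where 92.3% of genes fell and 0.122% rose. At 3, 6, 12 and 24 h MYCN differed by -0.46, +0.25, +0.29 and -0.25, with an adjusted p of 0.411 or more. Spike-ins were added at lysis after counting cells, so rescaled values are set to the counted cells. Less RNA per cell and an error in those counts were not tested apart. The higher spike-in sums of the 48 h libraries move with this result.

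On unnormalised values MYCN in BE(2)-C was nearly level up to 24 h. It was at 889, 902 and 910 FPKM without doxycycline, and the group means were 909 ± 29.1, 893 ± 37.2, 925 ± 15.8 and 924 ± 8.18 at 3, 6, 12 and 24 h. At 48 h it was at 796, 772 and 785, below every other library. That is 784 ± 12.3 FPKM, against 900 ± 10.8 without doxycycline (-0.20, SE 0.0451, adjusted p = 0.00275), and it also fell against 24 h (-0.24, adjusted p = 0.0124), where 1.84% of genes fell and 1.35% rose. On this scale 21.3% of tested genes fell and 18.1% rose at 48 h against no doxycycline, and the median gene changed by 0.02. MYCN ranked 94 to 131 among the genes of each library before 48 h, and 119 to 128 at 48 h.

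**Figure D2:**
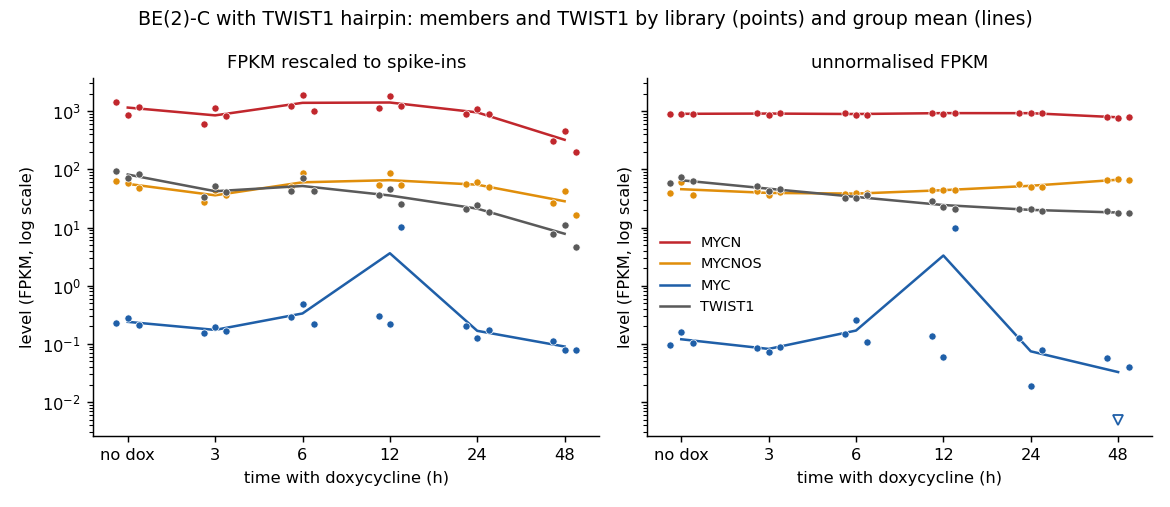
MYCN, MYCNOS, MYC and TWIST1 in BE(2)-C cells by hours with doxycycline, in FPKM on a log scale, rescaled to spike-ins on the left and unnormalised on the right; points are libraries, lines join group means, and the open triangle marks a library with MYC listed at 0. MYCN is nearly flat on the unnormalised scale, MYCNOS is highest at 48 h there, and 1 library at 12 h carries the high MYC value of 9.69.

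MYCNOS went the other way on the unnormalised scale. It was at 66.2, 67.7 and 65.0 FPKM at 48 h, against 39.8, 60.6 and 36.3 without doxycycline, so that no 48 h library overlaps with them. The means were 66.3 ± 1.35 and 45.6 ± 13.2 FPKM (+0.57, SE 0.129, adjusted p = 0.00278). At 3, 6, 12 and 24 h the mean was 39.3 ± 3.24, 38.3 ± 0.623, 43.8 ± 0.749 and 52.2 ± 3.05, and none of these passed (-0.18, -0.21, -0.02 and +0.22, adjusted p of 0.239 or more). With each library centred on its median gene the 48 h rise was +0.37 (adjusted p = 0.0434), where 30.6% of tested genes rose and 21.9% fell. On the rescaled scale the sign turned: MYCNOS was at 26.4, 41.8 and 16.6 FPKM at 48 h, against 63.2, 57.4 and 48.1 without doxycycline (-1.05, SE 0.352, adjusted p = 0.00676). That fall is smaller than the median gene's -1.36, and it missed the threshold without 48 h library 2 (-0.73, adjusted p = 0.0559).

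The ratio of MYCNOS to MYCN within a library does not turn with the scale. In percent of the MYCN level, MYCNOS was at 8.44 to 9.02% in the 3 libraries at 48 h, against 4.06 to 6.75% without doxycycline, with means of 8.70 ± 0.297% and 5.08 ± 1.45%. On unnormalised values the means were 8.45 ± 0.272% and 5.06 ± 1.46%. The groups do not overlap on either scale, and the exact permutation p of 0.1 (two-sided) is the smallest that 3 libraries against 3 can give. At 3, 6, 12 and 24 h the share was 4.31 ± 0.386, 4.29 ± 0.253, 4.59 ± 0.207 and 5.74 ± 0.362%, all overlapping with the controls. One control library, numbered 1, stands at the upper end with 6.75%. Over all 15 doxycycline libraries the log2 ratio differed from the controls by +0.10 (exact permutation test, p = 0.8015).

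**Figure D3:**
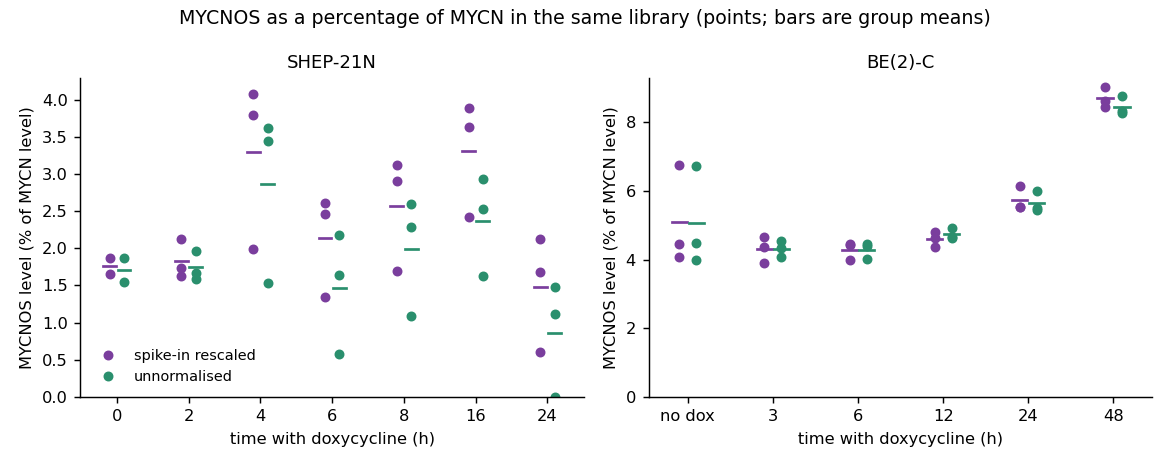
MYCNOS in percent of the MYCN level of the same library, SHEP-21N on the left and BE(2)-C on the right, by hours with doxycycline; points are libraries, short bars are group means, and colours give the scale. The 48 h libraries of BE(2)-C, 8.44 to 9.02% on the rescaled scale, lie above all others, while the SHEP-21N libraries scatter between 0.609 and 4.09% on that scale.

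**Figure D4:**
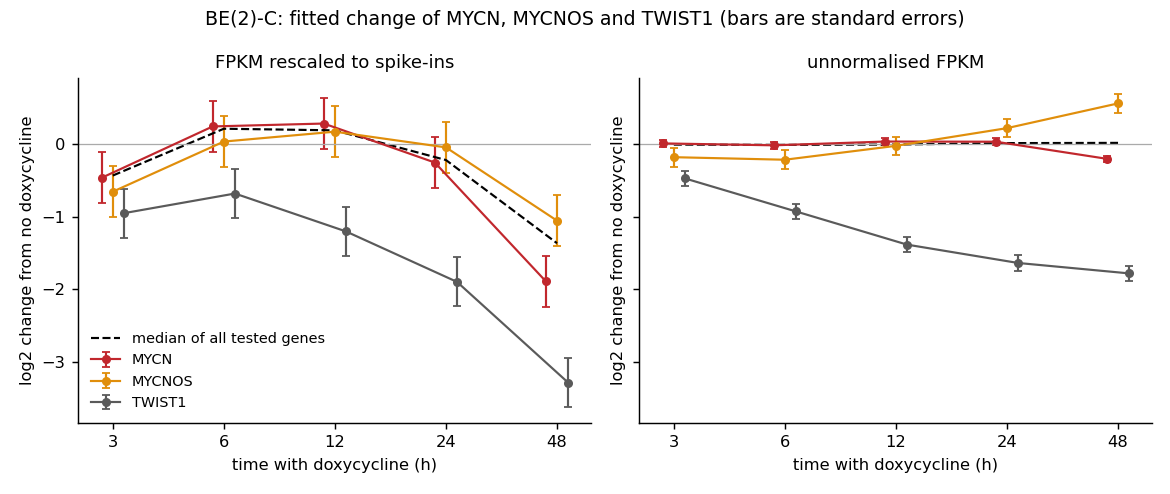
Fitted log2 change against no doxycycline in BE(2)-C cells for MYCN, MYCNOS and TWIST1, with standard errors, beside the median of all tested genes (dashed), on both scales. At 48 h the rescaled changes of MYCN and MYCNOS lie on either side of the median gene's -1.36, and on the unnormalised scale MYCNOS is at +0.57 and MYCN at -0.20.

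MYC was close to 0 in BE(2)-C cells. It failed the filter of 1 FPKM, and on unnormalised values it was at 0.0972, 0.159 and 0.104 FPKM without doxycycline and between 0 and 0.253 in every doxycycline library apart from 12 h library 2. That library has 9.69 FPKM (10.3 on the rescaled scale), inside the SHEP-21N range of 2.07 to 12.5 rescaled FPKM. Its MYCN level was 933 unnormalised FPKM, inside the range of the others. Over all doxycycline libraries MYC differed from the controls by +0.17 in log2 (rescaled FPKM + 1; exact permutation test, two-sided, p = 0.7206). Without that library the difference was -0.05 (exact p = 0.4647). Rescaled MYC was then at 0.0782 to 0.486 FPKM, and a listed 0 becomes 0.0377 to 0.201 in this model. Both ranges overlap, so these differences are of values near the floor. In limma without a filter the 12 h change was +1.08 (adjusted p = 0.985), a fit in which 0.00847% of the 23621 genes rose and as many fell. Without 12 h library 2 the 12 h differences from no doxycycline were +0.37 for MYCN, +0.29 for MYCNOS and -0.99 for TWIST1 (adjusted p = 0.735 for each), and none of these calls changed.

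Before doxycycline, the models had MYCN levels of the same order. On unnormalised values, set by separate tables and so compared without a test, MYCN was at 728 ± 19.6 FPKM in SHEP-21N (n = 2) and 900 ± 10.8 in BE(2)-C (n = 3). The genes next to the chromosomal MYCN differed more. No label names the vector of the TET-off gene in SHEP-21N, so whether they lie beside that gene is not known. DDX1, an RNA helicase often amplified together with MYCN, was at 46.3 ± 5.45 FPKM in SHEP-21N and 156 ± 2.80 in BE(2)-C, and NBAS, a Golgi-to-ER transport protein, at 2.83 ± 0.589 and 8.74 ± 1.30 in the same order. MYCNOS was at 12.5 ± 1.98 FPKM in SHEP-21N and 45.6 ± 13.2 in BE(2)-C. On chromosome 8 the order is reversed: MYC was at 2.17 ± 0.111 FPKM in SHEP-21N and 0.120 ± 0.0338 in BE(2)-C, and its noncoding neighbour PVT1 at 3.54 ± 0.438 and 2.09 ± 0.395 in the same order.

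**Figure D5:**
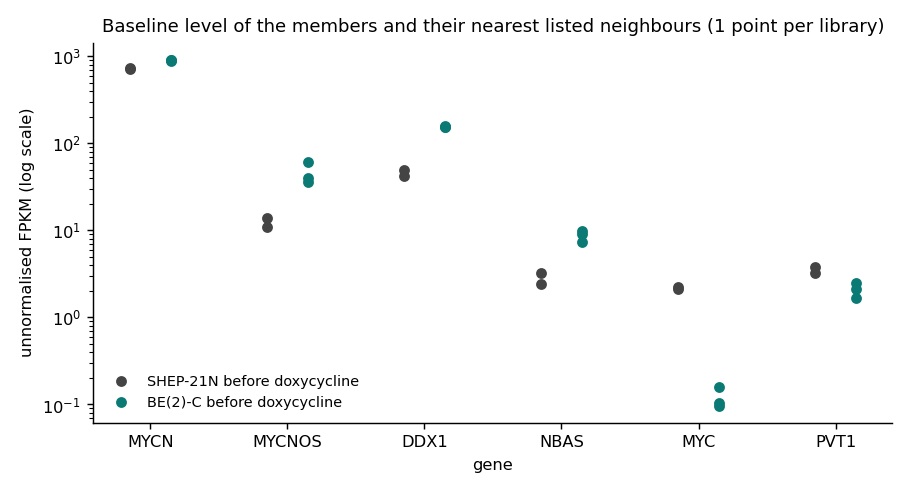
Unnormalised FPKM (log scale) of MYCN, MYCNOS, DDX1, NBAS, MYC and PVT1 before doxycycline, 1 point per library, SHEP-21N on the left of each pair and BE(2)-C on the right. The MYCN points lie between 715 and 910 FPKM, and MYC separates the models most.

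DDX1 and NBAS beside the chromosomal MYCN, and PVT1 beside MYC, passed at no time in SHEP-21N cells on rescaled values. DDX1 was at 51.1 ± 12.5 FPKM at 24 h, against 50.1 ± 1.38 at 0 h, and its largest difference was +0.41 at 6 h (adjusted p = 0.186). PVT1 came nearest to the threshold, with 2.74 ± 0.653 FPKM at 24 h against 4.03 ± 0.681 at 0 h (-0.43, adjusted p = 0.0541). On unnormalised values DDX1 (+0.28, adjusted p = 0.0351) and NBAS (+0.35, adjusted p = 0.00581) rose at 24 h. In BE(2)-C at 48 h all of them fell on rescaled values, with -1.49 for DDX1, -0.96 for NBAS and -0.80 for PVT1. On unnormalised values DDX1 (+0.17, adjusted p = 0.0134) and NBAS (+0.45, adjusted p = 8.53e-04) rose there, and PVT1 did not pass (+0.06, adjusted p = 0.677).

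Most known target genes of MYC and MYCN fell in SHEP-21N cells by 24 h. Of 23 tested targets, 0, 1, 4, 4, 5 and 18 fell at 2, 4, 6, 8, 16 and 24 h, beside 0.0506, 0.0758, 7.54, 3.83, 3.04 and 32.4% of all genes, and 0 rose at 24 h, beside 6.16%. On unnormalised values 0, 10, 11, 14, 19 and 20 of the 23 fell, beside 0.345, 18.1, 29.8, 29.2, 27.5 and 36.4% of all genes. Their median change at 24 h was -0.86, beside -0.31 for all tested genes. TFAP4, a helix-loop-helix factor, was at 9.15 ± 1.60 FPKM at 24 h, against 28.2 ± 4.39 at 0 h (-1.53, adjusted p = 4.52e-05). SRM, which makes spermidine, was at 115 ± 27.8, against 353 ± 62.2 (-1.62, adjusted p = 3.54e-04). CAD, of pyrimidine synthesis, was at 27.8 ± 5.76, against 68.1 ± 10.3 (-1.28, adjusted p = 6.60e-04), and TERT, the telomerase catalytic subunit, at 1.55 ± 0.175, against 5.44 ± 0.438 (-1.34, adjusted p = 4.57e-05). The median at 24 h on unnormalised values was -0.60, beside -0.04 for all genes. On that scale 2 of the 23 rose, a lower share than the 28.9% of all genes. Named because they rose, they were MDM2, the ligase for p53 (+0.58, adjusted p = 3.55e-04), and NDRG1, which is known as a gene repressed by MYCN (+0.58, adjusted p = 2.25e-05).

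MAX, the partner of both proteins, fell in SHEP-21N cells. It was at 22.6 ± 5.80 FPKM at 24 h, against 44.3 ± 5.94 at 0 h (-0.97, adjusted p = 0.00197). Of 10 tested network genes 6 fell and 1 rose at 24 h, beside 32.4% and 6.16% of all genes, with a median of -0.56, beside -0.31 for all genes. MLX, a MAX-like protein (-0.89, adjusted p = 0.00611), fell, as did MNT (-0.65, adjusted p = 0.0193) and MXI1 (-0.61, adjusted p = 0.0154), which repress with MAX. The 1 that rose was MXD4, another such repressor, at 12.5 ± 2.26 FPKM at 24 h, against 8.12 ± 1.36 at 0 h (+0.56, adjusted p = 0.0427). Of 10 genes that set MYCN protein stability 3 fell and 0 rose: the kinase PLK1 (-1.14, adjusted p = 0.00285), the ubiquitin ligase subunit SKP2 (-0.88, adjusted p = 0.00333) and the kinase AURKA, which shields MYCN from breakdown (-0.80, adjusted p = 0.00869). USP7, a deubiquitinase, did not pass (-0.39, adjusted p = 0.112). That count is near the 32.4% of all genes, and their median was -0.29, near that of all genes. On unnormalised values the same 3 fell, beside 36.4% of all genes. There FBXW7, the ligase subunit that marks MYCN for breakdown (+0.36, adjusted p = 0.00399), GSK3B, its priming kinase (+0.40, adjusted p = 7.65e-04), and BTRC (+0.33, adjusted p = 0.00181) rose, beside 28.9% of all genes. Both counts are near those shares. FBXW7, GSK3B and BTRC were named after their values were seen.

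Reported regulators upstream of MYCN RNA also fell in part, and whether they act on the TET-off gene of SHEP-21N was not tested. Of 9 tested 5 fell and 0 rose at 24 h in SHEP-21N, beside 32.4% and 6.16% of all genes, with a median of -0.61, beside -0.31. Among them were the homeobox factor ISL1 (-0.61, adjusted p = 0.00488), the cell cycle factor E2F1 (-0.81, adjusted p = 0.00876), the T-box factor TBX2 (-0.73, adjusted p = 0.0145) and HAND2 (-0.63, adjusted p = 0.0281). In a list of genes on the short arm of chromosome 2, which also holds MYCN, 3 of 6 tested fell, beside the same 32.4%. They were TRIB2, a pseudokinase (-0.72, adjusted p = 0.00196), ODC1, of polyamine synthesis (-1.07, adjusted p = 0.00323), and ID2, an inhibitor of helix-loop-helix factors (-0.81, adjusted p = 0.00866). ODC1 is also in the target list. SMC6, of the SMC5/6 DNA repair complex, did not pass (+0.32, adjusted p = 0.206), but rose on unnormalised values (+0.60, adjusted p = 0.0137). On 8q24 around MYC, none of 5 tested genes passed, the nearest being PVT1 and TRIB1, a pseudokinase (-0.45, adjusted p = 0.0568). On unnormalised values 1 of the 5 rose, FAM84B (+0.65, adjusted p = 1.47e-06), beside 28.9% of all genes.

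In BE(2)-C at 48 h the same lists fell with nearly all other genes on rescaled values. There 10 of 10 network genes, 21 of 21 targets and 10 of 10 stability regulators fell, where 93.3% of all genes did. So did 6 of 6 genes of the chromosome 2 list, 3 of 4 on 8q24 and 12 of 13 upstream regulators. On unnormalised values 5 of 10 network genes fell and 0 rose, beside 21.3% and 18.1% of all genes, with a median of -0.17 beside 0.02 for all genes. Those named by the smallest adjusted p on rescaled values were ZBTB17, which binds MYC in repression (-0.51, adjusted p = 5.59e-04), MXD3 (-0.49, adjusted p = 0.00897), MXD4 (-0.24, adjusted p = 0.0173) and MLX (-0.20, adjusted p = 0.0133). Of 21 targets 2 fell and 5 rose on that scale, beside 21.3% and 18.1% of all genes. The share that rose is near that of all genes, and the share that fell is lower. Those that fell were PTMA, prothymosin alpha (-0.56, adjusted p = 4.08e-05), and MCM7, of the replicative helicase (-0.26, adjusted p = 0.00677). Those that rose, named after their values were seen, were CAD (+0.62, adjusted p = 1.49e-04), lactate dehydrogenase LDHA (+0.44), the mitochondrial chaperone HSPD1 (+0.36), ODC1 (+0.25) and NPM1, a nucleolar chaperone (+0.18). Of 13 upstream regulators, with the hairpin's own target TWIST1 counted, 5 fell and 4 rose, beside the same 21.3% and 18.1%. Among the falls were TWIST1 itself, HAND2, a sympathoadrenal factor (-0.56, adjusted p = 9.26e-07), E2F1 (-0.54, adjusted p = 1.87e-04) and TBX2 (-0.40, adjusted p = 5.05e-04). Among those that rose, named after their values were seen, were LIN28B, a blocker of let-7 maturation (+1.25, adjusted p = 2.77e-05), and the sympathoadrenal factors ISL1 (+0.28) and GATA3 (+0.15). PLK1 was the 1 of 10 stability regulators that fell (-0.44, adjusted p = 5.37e-05), a lower share than the 21.3% of all genes.

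Likeness of pattern was measured as Pearson's r of log2(FPKM + 1) over the libraries of a model, which share the time course and the scaling, and is given as a description. Over the 20 SHEP-21N libraries MYCNOS followed MYCN with r = 0.976. Of 10969 eligible genes, whose median r was 0.260, the closest to MYCN were TFAP4 (0.948), the Krüppel-like factor KLF15 (0.932), the RNA polymerase I subunit CD3EAP (0.925), the phosphodiesterase PDE4A (0.920) and the kinase SIK1 (0.916). On unnormalised values 3 of these 5 were again among the closest 5: TFAP4, PDE4A and SIK1. Closest to MYC were SYTL4 (0.928), MTMR11 (0.908), SGCB (0.908), LRRC16A (0.902) and NEK7 (0.900), none of which stayed among the closest 5 on unnormalised values. MAX had r = 0.825 with MYCN and -0.481 with MYC.

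In BE(2)-C the rescaled values give little to choose between genes, since the median r with MYCN over 10676 genes was 0.969 (18 libraries). ENPP2, which makes lysophosphatidic acid, led with 0.998, followed by CACNG4, GATA2, KHDRBS1 and PSMD1 at 0.998 to 0.997. On unnormalised values the median r was -0.00768, and 1 of the 5, ENPP2, stayed among the closest 5 (0.870). MYCNOS had r = 0.909 with MYCN on rescaled and -0.607 on unnormalised values. The genes closest to MYC in BE(2)-C, HIST2H3A (0.812), SNAR-A6, SNAR-C3, SNAR-C4 and MALAT1, rested on 12 h library 2. Without it none of them was among the closest 5, which were BBS5 (0.861), VPS9D1, CABYR, SLC27A3 and RTEL1-TNFRSF6B, with a median r of 0.729 over all genes. MYC was then at 0.0782 to 0.486 rescaled FPKM, which overlaps what a listed 0 becomes, so these r values rest on levels near the floor.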

How the data were processed

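RNA of SHEP-21N and BE(2)-C cells was measured with ERCC spike-ins added at lysis after counting cells, selection of polyadenylated RNA and a stranded kit, per the labels' protocols. The submitters' processing notes name HISAT, the build hg19 and Cufflinks 2.0.0, and no source used here gives the strand setting. The authors deposited an unnormalised FPKM table and one rescaled to the spike-ins for each model, with 23713 entries, 92 of them spike-ins. The method of rescaling is not stated. It is not a pure factor, since entries listed at 0 are above 0 afterwards. Column names gave the groups, and the number at their end only tells libraries apart. FPKM carry no read numbers, so no counting interval can be given.

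Computed here with R 4.3.3, limma 3.58.1 and Python 3.11.15 (numpy 2.4.6, pandas 2.3.3, scipy 1.17.1, matplotlib 3.10.9): limma with 1 mean per time and an intensity trend on log2(rescaled FPKM + 1), on genes with a mean of at least 1 unnormalised FPKM, adjusted over all of them. The model was tested on simulated data with known changes. Ratios within a library and MYC in BE(2)-C, which fails the filter, had exact permutation tests. Alternatives were the unnormalised table, centring each library on its median gene, a pseudocount of 0.1 FPKM, no filter, the column number as a block, and leaving out each library in turn. Alternatives without a pseudocount, without a filter on the unnormalised table and without 12 h library 2 were added after seeing the data.

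Named genes are MYCN, MYCNOS, MYC, TWIST1, the neighbours DDX1, NBAS and PVT1, up to 4 genes of each list with the smallest adjusted p at the latest time (some list genes are counted but not reported here by name), and the 5 genes most like MYCN and MYC. OTX2, NEUROD1, MAGEA3 and the list genes so described were named after their values were seen. The list gene MYCL was looked up under its older symbol MYCL1, and GACAT3, CCAT1 and TMEM75 are not rows of the tables. The members, lists and tests were chosen with earlier results of these data known.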

Additional observations from a re-analysis of the deposited data

How the results depend on the processing

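The scale matters most. MYCN and MYCNOS in SHEP-21N kept their direction and call against 0 h under every alternative run. The column numbers do not pair the libraries (correlation of deviations -0.0389 to 0.0644), and the replicate block, which gave MYCN in SHEP-21N at 24 h -5.76, changed no call of MYCN, MYCNOS, MYC or TWIST1. MYC in SHEP-21N at 4 h passed on unnormalised values (0.81, filtered or not), with median centring (0.81) and with a pseudocount of 0.1 (0.98). The MYCNOS to MYCN ratio in SHEP-21N missed the threshold with 0.1 added (0.66) or nothing added (0.45, unnormalised 0.10). FPKM carry no depth, so what depth limits could not be given.

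Directions turned mostly in BE(2)-C. On unnormalised values, with or without the filter, MYCN was at 0.014, -0.012 and 0.037 at 3, 6 and 24 h, and MYCNOS at -0.21, -0.020, 0.22 and 0.57 at 6, 12, 24 and 48 h. With median centring MYCN was at -0.020 at 6 h and MYCNOS at -0.23, -0.014, 0.21 and 0.37 at those times. The MYC to MYCN ratio with nothing added was -0.00777 on unnormalised values. Unnormalised MYCN was at -0.027 at 6 against 3 h, MYCNOS at -0.035, 0.24 and 0.34 for 6 against 3, 24 against 12 and 48 against 24 h (centred -0.0029, 0.22 and 0.16), and TWIST1 at -0.46 for 6 against 3 h (centred -0.42). In SHEP-21N, MYCN at 8 against 6 h was at -0.0099 unnormalised and centred, and MYCNOS at -0.017 there with centring, at -0.012 (unnormalised) and -0.029 (centred) for 16 against 8 h, and at 0.064 (centred) for 24 against 16 h. The cause was not tested.

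Leaving out 1 library at a time, in SHEP-21N MYC ranged between -0.069 and 0.18 at 2 h, 0.72 and 0.88 at 4 h, and 0.81 and 0.96 at 6 h. MYCN at 8 against 6 h ranged between -0.027 and 0.17, and MYCNOS between -0.0066 and 0.14 there and between -0.046 and 0.064 for 16 against 8 h. In BE(2)-C against no doxycycline, MYCN ranged between -0.011 and 0.45 at 6 h, and MYCNOS between -0.24 and 0.22, -0.061 and 0.30, -0.15 and 0.046, and -1.37 and -0.73 at 6, 12, 24 and 48 h. For 12 against 6 h, MYCN ranged between -0.17 and 0.30 and MYCNOS between -0.10 and 0.42, and MYCNOS for 24 against 12 h between -0.34 and 0.020. The ratios over all doxycycline libraries ranged between 6.10 and 6.45 (MYC to MYCN, SHEP-21N), 1.78 and 1.95 (MYCNOS to MYCN, SHEP-21N) and -0.045 and 0.32 (MYCNOS to MYCN, BE(2)-C), and the MYC level in BE(2)-C between -0.050 and 0.19.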
